A study of Mus musculus with 14 samples.

Results

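Sites at CpG-poor coding promoters were H3K27ac sites close to the start of a protein-coding gene that has few CpG dinucleotides around that start. H3K27ac is histone H3 acetylated at lysine 27. A site belonged to this class if its middle lay within 1 kb of the 5' end of a GENCODE protein-coding gene whose ratio of observed to expected CpGs was under 0.4. The ratio was taken over 500 bp either side of the 5' end, and the 5' end was the outermost one annotated for the gene. The class had 1210 members of 122228 sites in all, or 0.990% of the 122171 sites on chromosomes 1 to 19 and X. They made up 9.05% of the 13376 sites at coding promoters.

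The sites came from chromatin immunoprecipitation followed by sequencing in immortalised mouse embryo fibroblasts (iMEF) of the single clone NG3. In these cells exon 4 of the endogenous Ash2l gene had been deleted by Cre-ER, and FKBP-HA2-ASH2L, a tagged human protein expressed from a lentivirus, took the place of Ash2l. The compound dTAG-13 ties the FKBP tag to the ubiquitin ligase component CRBN, so that the fusion protein is degraded. Control cells gave 2 of the 12 H3K27ac libraries, and 2 each came from cells after 30 min, 2 h, 4 h, 8 h and 16 h of dTAG, and the inputs of control cells and of cells after 16 h made 2 further libraries. All groups shared the clone, the deletion and the transgene. The sites of all samples were joined into a single list of positions. A site therefore may come from any time point, no site had a value per sample or a read depth, and no change over time was analysed here.

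Most mammalian coding genes start in DNA rich in CpGs that is largely free of methylation, and these CpG island promoters serve genes used by most cells. CpG-poor promoters belong mainly to genes that only some cell types use, or that respond to a signal, and a part of them carries a TATA box. H3K27ac, which is placed by the acetyltransferases p300 and CBP, marks promoters and enhancers in use, and COMPASS/KMT2 complexes with their subunit ASH2L methylate lysine 4 of H3 at both.

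The 150 bases before the 5' end are printed for 8 member genes, each the gene with the widest member site of a gene list named below. The ratio was taken over 500 bp either side, so that these 150 bases alone can be richer in CpGs, as at Tagln. Fn1, the fibronectin gene, is added as a comparison with a ratio of 0.688. All were read 5′ to 3′ on the strand of the gene from GRCm38 (mm10). Capitals mark CpGs, the word TATAAA and the word TGANTCA, a loose form of the core of binding sites for AP-1. N stands for any base, so that a match need not be such a core. The windows were chrX:73483452-73483601 on the plus strand for Bgn, chr6:4504664-4504813 on the plus strand for Col1a2 and chr10:128790760-128790909 on the plus strand for Mmp19. They were chr9:45936059-45936208 on the minus strand for Tagln, chr5:90759210-90759359 on the plus strand for Cxcl5 and chr7:141010771-141010920 on the minus strand for Ifitm3. For Serpinf1 the window was chr11:75422702-75422851 on the minus strand, for S100a4 chr3:90603621-90603770 on the plus strand and for Fn1 chr1:71653201-71653350 on the minus strand.
Bgn: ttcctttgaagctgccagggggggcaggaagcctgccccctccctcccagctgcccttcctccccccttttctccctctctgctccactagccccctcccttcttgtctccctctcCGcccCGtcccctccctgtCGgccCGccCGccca
Col1a2: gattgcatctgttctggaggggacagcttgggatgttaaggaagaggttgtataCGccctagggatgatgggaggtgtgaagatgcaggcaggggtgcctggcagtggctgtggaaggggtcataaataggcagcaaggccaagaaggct
Mmp19: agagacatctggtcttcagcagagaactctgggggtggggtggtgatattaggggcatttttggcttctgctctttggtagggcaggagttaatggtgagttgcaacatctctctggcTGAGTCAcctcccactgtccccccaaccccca
Tagln: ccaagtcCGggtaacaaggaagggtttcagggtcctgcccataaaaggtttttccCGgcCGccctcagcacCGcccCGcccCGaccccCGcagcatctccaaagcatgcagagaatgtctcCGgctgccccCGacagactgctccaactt
Cxcl5: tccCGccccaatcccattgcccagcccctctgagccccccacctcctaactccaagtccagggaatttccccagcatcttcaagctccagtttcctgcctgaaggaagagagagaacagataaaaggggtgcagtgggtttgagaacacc
Ifitm3: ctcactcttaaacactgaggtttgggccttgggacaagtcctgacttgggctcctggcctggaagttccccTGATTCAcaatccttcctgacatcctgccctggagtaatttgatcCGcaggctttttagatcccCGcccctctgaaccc
Serpinf1: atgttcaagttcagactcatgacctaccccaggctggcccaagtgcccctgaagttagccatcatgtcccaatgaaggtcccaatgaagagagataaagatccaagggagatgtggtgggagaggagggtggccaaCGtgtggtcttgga
S100a4: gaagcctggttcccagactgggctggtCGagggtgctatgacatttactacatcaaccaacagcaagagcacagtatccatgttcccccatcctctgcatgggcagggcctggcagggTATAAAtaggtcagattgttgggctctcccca
Fn1: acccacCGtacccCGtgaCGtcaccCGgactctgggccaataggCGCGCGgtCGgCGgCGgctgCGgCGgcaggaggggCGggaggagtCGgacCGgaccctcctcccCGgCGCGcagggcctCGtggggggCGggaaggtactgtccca

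The Fn1 window held 20 CpGs. Among the CpG-poor genes, Tagln had 9 CpGs in these 150 bases, Bgn 5, Ifitm3 2, Col1a2, Cxcl5, Serpinf1 and S100a4 1 each, and Mmp19 0. TATAAA was found only in S100a4 among these 9 windows, beginning 32 bases before the 5' end. TGANTCA was found in Mmp19 and Ifitm3.

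CpG-poor coding promoters rarely had a site. Of the 21755 coding genes, 8623 were CpG-poor, and 961 of these had a site within 1 kb, which is 11.1% (95% Wilson interval, counting error only, for all shares given). Of the 13132 other coding genes, 74.9% had a site, and of all coding genes 49.6%. The share was lower at CpG-poor genes on 20 of 20 chromosomes, with a difference of -62.7 ± 4.72 percentage points (mean and SD over chromosomes). An exact permutation test that flips the sign of each chromosome's difference, two-sided, gave p = 1.91e-06 (adjusted p = 4.77e-06). This p was the smallest that the test can give. In each bin of the ratio the share was higher than in the bin before. It was 2.63% (1.98 to 3.49) of 1749 genes with a ratio under 0.1, 6.91% from 0.1 to 0.2, 14.7% from 0.2 to 0.3 and 24.7% from 0.3 to 0.4, and it reached 89.5% at 0.9 and over. The ratio bound thus cut through a slope and not through a gap. Just under the bound were Fam20a (ratio 0.39967, widest site 3135 bp), Wdr83 (0.39976, 1740 bp) and Trpt1 (0.39981, 541 bp), and just over it Rhoj (0.40036, 1294 bp), Washc3 (0.40154, 536 bp) and Kdelr1 (0.40154, 1752 bp). At the bound on distance, the middles of the last member sites were 998, 999 and 1000 bp from the 5' ends of Tbxa2r, Ugt1a6b and Tmem253, and those of the first sites left out were 1001, 1001 and 1003 bp from those of Art3, Mroh6 and 4930590J08Rik.

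**Figure D1:**
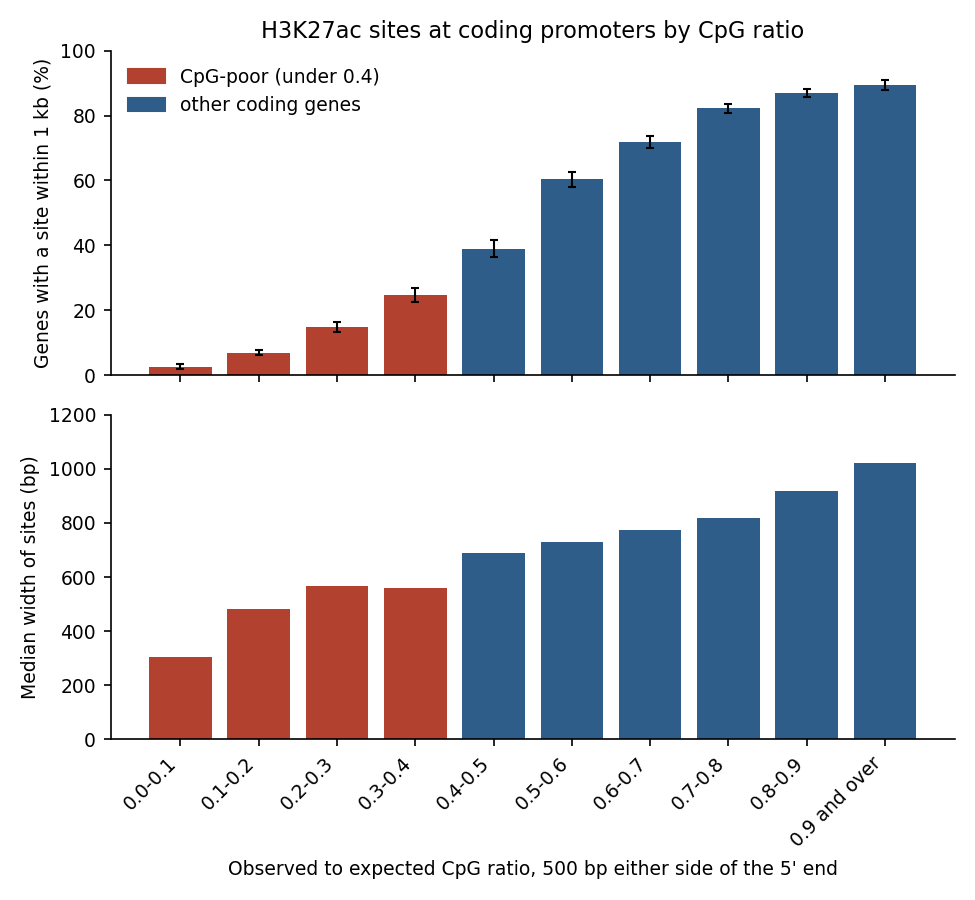
Share of protein-coding genes with an H3K27ac site within 1 kb (upper panel, with 95% Wilson intervals) and median width of those sites in bp (lower panel) in 10 bins of the CpG ratio around the 5' end. The share runs from 2.63% under 0.1 to 89.5% at 0.9 and over, and the median width from 306 to 1021 bp.

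The chromosomes are described without a test. The share was lowest on chromosome 14, at 4.86% of 432 genes, and on the X chromosome, at 6.94% of 490 genes. It was highest on chromosome 18, at 20.4% of 157 genes, and on chromosome 3, at 17.0% of 377 genes. The distance to a CpG-richer start was looked at in the same way. The share was 63.6% of the 55 genes whose 5' end lay less than 1 kb from another gene's 5' end with a ratio of at least 0.4, and it was 19.2% at 1 to 5 kb, 15.5% at 5 to 20 kb, 12.8% at 20 to 100 kb and 6.99% at 100 kb or more. Only 49 of the 1210 member sites (4.05%) lay within 1 kb of such a CpG-richer 5' end as well. Of the 961 genes, 271 (28.2%) had another annotated coding transcript that starts in DNA with a ratio of at least 0.4, compared to 11.1% of the CpG-poor genes without a site. Iqgap1, which encodes a scaffold protein of the cytoskeleton, had such a start with a ratio of 0.75, and Hsp90aa1, which encodes a chaperone, one with 1.07. Other such starts were nearer to the bound, as at Gbp3 (0.403), Pdgfrb (0.406), Krt19 (0.420), Fgf7 (0.441), Igf1 (0.482) and Cald1 (0.485). No least distance from the 5' end was asked of them. Of the 7498 genes without a start of ratio of at least 0.4, 9.20% had a site, compared to 24.1% of the 1125 genes with one. The part of the ratio at the 5' end itself in this contrast was not tested. Support of the 5' end by a RefSeq transcript start within 100 bp was counted as well, and 478 of 4217 CpG-poor genes with that support (11.3%) and 483 of 4406 without it had a site.

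Genes of the extracellular matrix and of the contractile apparatus were among the member genes. The lists described here were composed from general knowledge, with earlier results of these data known, and their shares are descriptions beside the 11.1% of all CpG-poor genes. Collagens and other matrix proteins had a site at 15 of 23 CpG-poor genes (65.2%, 44.9 to 81.2). Col1a2, which encodes a chain of type I collagen, had a site of 2720 bp on chromosome 6 from 4503948 to 4506667, which held the 5' end and had its middle in a UTR. Col6a1, a type VI collagen gene, had 1 of 2376 bp. Ecm1 had 1 of 1511 bp, Col5a2, a type V collagen gene, a widest site of 1476 bp, and Mgp, which encodes an inhibitor of calcification, 1 of 1242 bp. Timp1, which encodes an inhibitor of metalloproteinases, was flanked by sites of 916 and 555 bp without a site over the 5' end itself. Other genes of the list had narrow member sites. Col3a1 had 1 of 454 bp. Sparc, which encodes the collagen-binding protein osteonectin, and Col6a3 had members of 220 and 225 bp beside wider sites of 4450 and 4139 bp, which held their 5' ends but had the middle more than 1 kb away.

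Small leucine-rich proteoglycans, which bind collagen fibrils, had a site at 6 of 11 CpG-poor genes (54.5%, 28.0 to 78.7). The widest was at Bgn, the biglycan gene, and measured 2964 bp on the X chromosome from 73482351 to 73485314. Fmod, the fibromodulin gene, had a site of 982 bp over the 5' end, and Prelp was flanked by sites of 427 and 239 bp. Aspn, Omd and Ogn lie next to each other on chromosome 13, and each had a site only upstream of the 5' end, of 754, 248 and 727 bp. The cluster of Dcn, Lum, Kera and Epyc on chromosome 10, named after its values were seen, had no member site. The nearest site was 115427 bp from the 5' end of Dcn, 200946 bp from that of Lum, 242697 bp from that of Kera and 279886 bp from that of Epyc.

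Contractile genes had a site at 7 of 12 CpG-poor genes (58.3%, 32.0 to 80.7), and the median of their widest sites was 2310 bp. Tagln, which encodes the actin-binding protein transgelin, had a site of 3496 bp on chromosome 9 from 45933609 to 45937104, in a region of 13 sites with gaps under 1 kb. Lmod1, the leiomodin gene, had 1 of 3420 bp, Myl9, a regulatory myosin light chain gene, 1 of 2592 bp, and Cald1, the caldesmon gene, 1 of 2310 bp. Ankrd1 had 1 of 1812 bp and Acta2, the gene of smooth muscle actin, 1 of 1389 bp in a region of 16 sites. Cnn1 had a site of 567 bp upstream only. Thus 6 of the 7 genes had the 5' end in a site.

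The lists of serpins and plasminogen activation, of matrix metalloproteinases and of growth factors followed. Serpins and genes of plasminogen activation had a site at 10 of 25 CpG-poor genes (40.0%, 23.4 to 59.3). Serpinf1, which encodes the pigment epithelium-derived factor, had a site of 3491 bp, and Serpinb9b had 1 of 2645 bp. Plat, which encodes the tissue plasminogen activator, had a site of 602 bp upstream only. Matrix metalloproteinases had a site at 5 of 12 CpG-poor genes (41.7%, 19.3 to 68.0), and these were narrower. Mmp19 had a site of 1161 bp that stood 9774 bp from the next site, whereas Mmp13 and Mmp3, which encode a collagenase and stromelysin-1, had sites of 218 and 210 bp. Neither of the latter held the 5' end. Growth factors had a site at 7 of 14 CpG-poor genes (50.0%, 26.8 to 73.2). Ccn5 had 1 of 3435 bp in a region of 18 sites, Fgf7, which encodes keratinocyte growth factor, 1 of 2938 bp, and Fgf21 a widest site of 2360 bp. Hgf had 1 of 778 bp, and Igf1 a site of 219 bp downstream of the 5' end.

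Cytokine and chemokine genes had a site at 13 of 41 CpG-poor genes (31.7%, 19.6 to 47.0). Cxcl5, which encodes an attractant of neutrophils, had the widest, of 2009 bp, and its neighbours Ppbp, Cxcl3 and Cxcl15 had widest sites of 825, 356 and 404 bp. Ccl9 had a site of 1510 bp. The 5' end of Il6, the interleukin-6 gene, was covered by a site of 416 bp, with sites of 484 bp upstream and 308 bp downstream at gaps of 185 and 71 bp. Interferon-stimulated genes had a site at 14 of 37 CpG-poor genes (37.8%, 24.1 to 53.9). The widest were at Ifitm3 (3911 bp), Isg20 (3684 bp) and Ifitm2 (3445 bp), of which the Ifitm genes encode membrane proteins that block the entry of viruses. Irf7 and Irf9, which encode transcription factors of the interferon response, had widest sites of 393 and 483 bp downstream of the 5' end. Igtp and Irgm2, which encode immunity-related GTPases, shared a single site of 373 bp upstream of both 5' ends. In this way 21 members lay within 1 kb of 2 or more CpG-poor 5' ends. The genes Oas1a, Oas1g, Oas2 and Oas3, named after their values were seen, had the nearest site 216792, 236700, 135643 and 163451 bp from the 5' end.

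Marker genes of other tissues had few members by count. Their lists were short, and some shares lay near the 11.1% of all CpG-poor genes. Counts in this paragraph are of CpG-poor genes unless others are named. The fibroblast markers, by which the cell type was checked, had a site at 5 of 9 CpG-poor genes and at 3 of 3 others. The former were S100a4 (7557 bp), Pdgfrb (4884 bp), Col1a2, Postn (644 bp) and Col3a1, while Dcn, Lum, Pdgfra and Col1a1 had no member site. Of these, Pdgfra had a site 573 bp away and Col1a1 lay in a site too wide for the rule, as given below. Blood cell markers had a site at 1 of 23 genes (4.35%), namely Cd68, with 1070 bp. Endothelial markers had 1 of 7 (14.3%, 2.57 to 51.3), at Tek with 765 bp. Striated muscle markers had 2 of 15 (13.3%, 3.74 to 37.9), at Tnni2 with 418 bp and Actn3 with 385 bp. Hepatocyte markers had 0 of 15, which allows a share of up to 20%, and nervous system markers 0 of 6, which allows up to 50%. Keratin genes had a site at 5 of 34 (14.7%, 6.45 to 30.1), and Krt80 had the widest, of 7431 bp, with the next site 7930 bp away. Sensory receptor genes make up a large part of CpG-poor coding genes and almost all lacked a site. Olfactory receptor genes had 7 of 1130 (0.619%), type 1 vomeronasal receptor genes 3 of 207 and type 2 vomeronasal receptor genes 0 of 120, which allows up to 2.5%. Their widest sites measured 252 to 429 bp. Keratin-associated protein genes had 4 of 56 (7.14%) and beta-defensin genes 1 of 41. Many of these genes have close copies, so that reads can align to more than 1 of them, and their sites are uncertain.

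**Figure D2:**
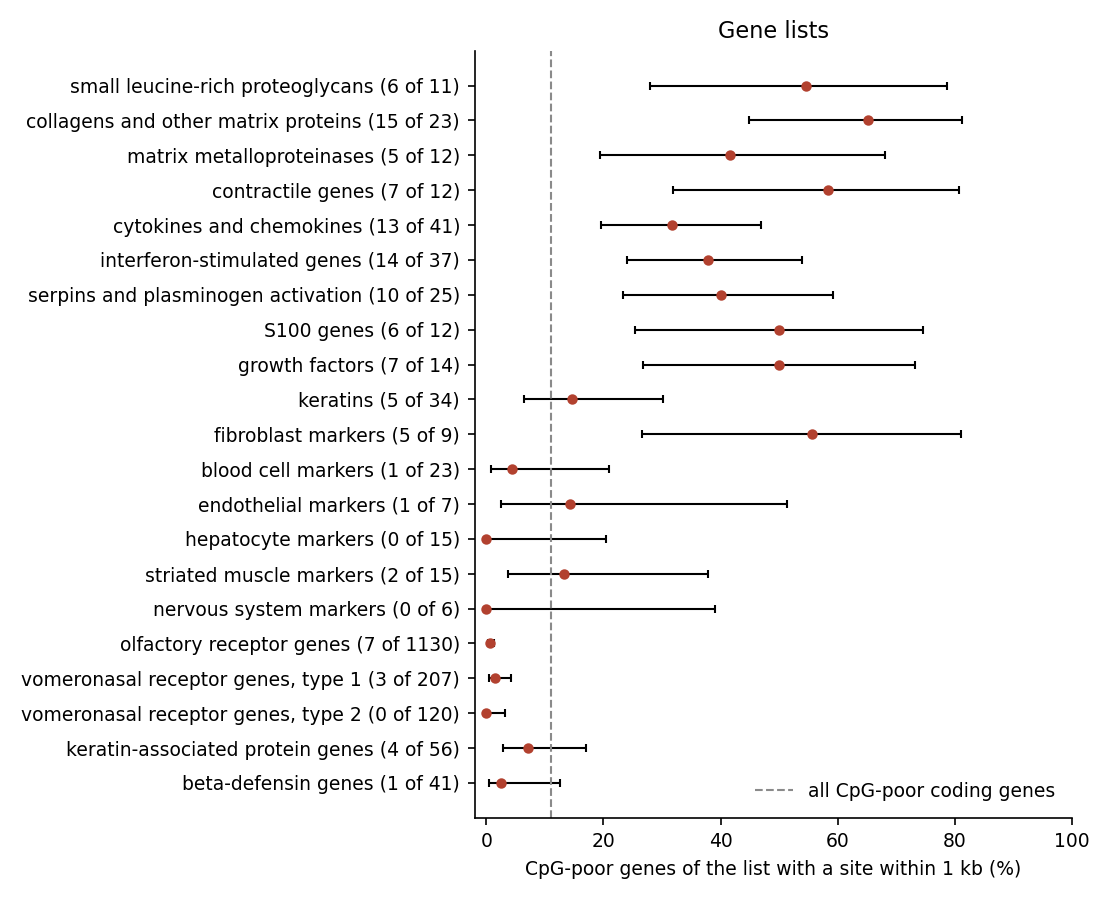
Share of the CpG-poor genes of each list that have a site within 1 kb, in percent, with 95% Wilson intervals and the counts in brackets. The broken line is the 11.1% of all CpG-poor coding genes, and the points run from 65.2% for matrix proteins to 0 for hepatocyte, nervous system and type 2 vomeronasal receptor genes.

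Sites at CpG-poor promoters were narrower than those at other coding promoters. The median was 529 bp wide, with quartiles of 321 and 1074.75 bp and a range of 200 to 10322 bp, compared to 843 bp for the 12166 sites at the other coding promoters, a ratio of 0.628. The median was lower on 20 of 20 chromosomes, by 0.67 ± 0.29 on the log2 scale (mean and SD over chromosomes), with p = 1.91e-06 in the same exact permutation test (adjusted p = 4.77e-06). The difference was largest on chromosome 16 and least on the X chromosome, at -1.29 and -0.04. Sites away from coding promoters had a median of 375 bp. Within the class, the median was 306 bp at ratios under 0.1 and 481 bp from 0.1 to 0.2, and it was 568.5 and 560 bp from 0.2 to 0.3 and from 0.3 to 0.4. At the lowest ratios, Serpina3i, with a ratio of 0 (no CpG in the window), had sites of 373 and 667 bp, and Prss2 and Mmp1b, both with 0.023, had sites of 376 and 459 bp.

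The class was also spread out over a wide range. Of the members, 4.38% (3.36 to 5.68) measured exactly 200 bp, the narrowest width in the list, compared to 1.07% at other coding promoters. At the other end, 9.34% (7.83 to 11.1) were wider than 2000 bp, compared to 8.63% at other coding promoters and 3.79% away from them. The widest member, at G430095P16Rik, measured 10322 bp on chromosome 8 from 84718824 to 84729145. That at Kdm6b, which encodes a demethylase of lysine 27 of histone H3, measured 10149 bp on chromosome 11 from 69408760 to 69418908, held 5 TGANTCA words and stood 95 bp from the next site. Ccdc9b (8734 bp), Fgd3 (7583 bp), S100a4 (7557 bp), Krt80 (7431 bp) and Phyhd1 (7374 bp) followed. Adamts4, which encodes a protease of proteoglycans, had 5916 bp, Iqgap1 5735 bp and Tgfb1i1, which encodes the focal adhesion protein HIC-5, 5609 bp with 6 TGANTCA words.

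The rule on the middle of the site left out sites that were wide and lay to one side. The 5' ends of 51 further CpG-poor genes were inside a site whose middle was more than 1 kb away. Such sites measured 2055 to 22711 bp and were not members on account of that gene. The widest was at Col1a1, which encodes the other chain of type I collagen. It was followed by Anxa8 (11605 bp), Rin1 (11270 bp), Axl (10722 bp), a receptor tyrosine kinase gene, and Sbno2 (9582 bp). Cspg4 (9124 bp), Plaur (8621 bp), which encodes the urokinase receptor, Ccn4 (8173 bp), Pcolce (7181 bp), Lgals1 (5608 bp), Ccl2 (4711 bp) and Emilin1 (2645 bp) were among them as well. With any overlap of the site with 1 kb either side of the 5' end counted instead, chosen after the data were seen, 1564 sites qualified, and the median widths were 644.5 and 864 bp.

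**Figure D3:**
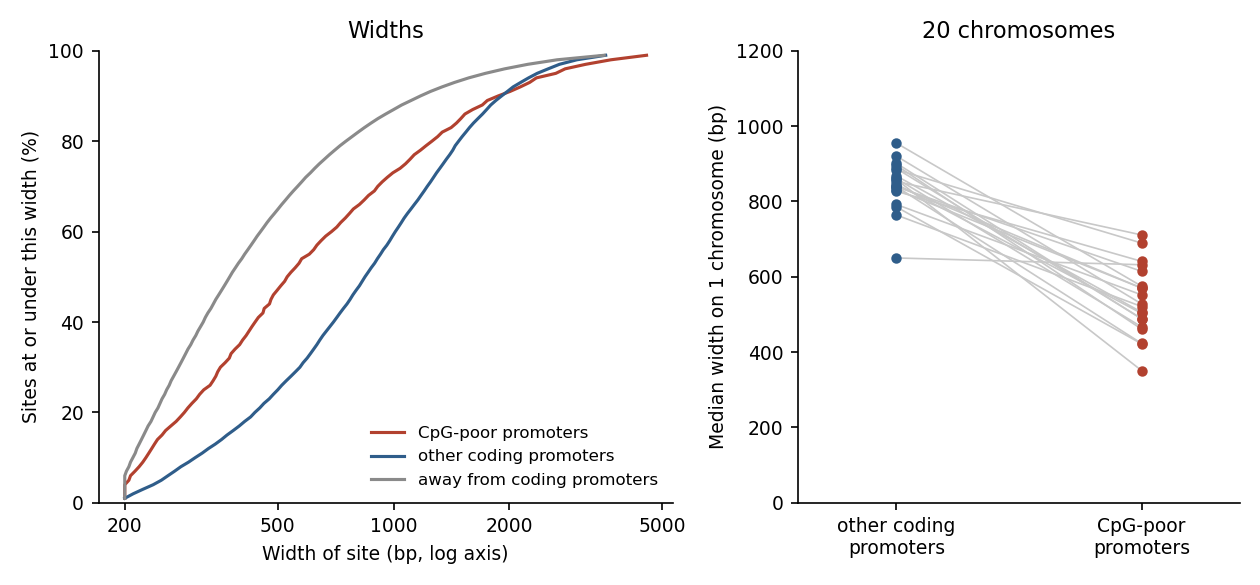
Left, cumulative share of sites by width (log axis, 1st to 99th percentile) for the 1210 sites at CpG-poor promoters, sites at other coding promoters and sites away from them, with medians of 529, 843 and 375 bp. Right, median width on each of the 20 chromosomes, where lines join the values of 1 chromosome and every line slopes down toward the CpG-poor promoters.

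The placement of member sites around the 5' end was compared by 2 measures, and no difference from other coding promoters passed the threshold. Both measures rest on the position of the site, which the rule limits to 1 kb in both classes. Their values and p-values therefore describe sites inside that window only, and not placement in general. The 5' end was inside 49.3% (46.5 to 52.2) of member sites and 51.4% of other sites, a difference of -2.12 ± 4.65 percentage points over chromosomes (exact sign-flip permutation p = 0.0557, adjusted p = 0.0696, below 0 on 13 of 20 chromosomes). The middle was downstream of the 5' end in 62.8% (60.1 to 65.5) of members and 67.0% of other sites, a difference of -3.59 ± 7.73 percentage points (exact sign-flip permutation p = 0.0521, adjusted p = 0.0696, below 0 on 13 of 20 chromosomes). Both depended on the settings. The share that held the 5' end was 8.63 points higher in members with a distance of 500 bp (adjusted p = 6.36e-05 in the exact sign-flip permutation test) and gave a difference of -13.0 points with 2 kb (adjusted p = 3.18e-06). For the middle downstream the difference was -11.1 points with sites merged across gaps under 200 bp (adjusted p = 9.06e-05 in the same exact test).

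Other aspects of the position are given as descriptions. The middle lay at a median of 156 bp downstream of the 5' end (quartiles -250 and 444.75 bp), compared to 241 bp at other coding promoters, and within 250 bp of the 5' end in 35.4% of members and 26.1% of other sites. The 597 members that held the 5' end had a median width of 964 bp and reached 567 bp downstream and 296 bp upstream of it (medians). Of these, 69.7% (65.9 to 73.2) reached farther downstream. The corresponding values for other promoters were 1246 bp, 871 bp, 333 bp and 84.2%. The medians thus lay farther apart downstream than upstream, which was not tested. The 613 members that missed the 5' end had a median width of 369 bp, and their nearer edge was 340 bp from it, compared to 544 bp and 115 bp for other promoters. The middle was in an intron of a coding gene in 37.6% of members, outside coding genes in 29.5% and in a UTR in 21.1%. It was in coding sequence in 7.93% and in another exon of a coding gene in 3.88%. For sites at other coding promoters these shares were 36.7%, 27.8%, 18.3%, 11.99% and 5.23%, in the same order.

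Taken by gene and counting member sites alone, 607 of the 961 genes (63.2%, 60.1 to 66.2) had the 5' end in a site, 207 (21.5%) had sites downstream only and 106 upstream only. A further 41 (4.27%, 3.16 to 5.74) had sites on both sides with the 5' end in the gap, among them Prelp, Timp1, Cxcl3 and Vegfd. At other coding genes with a site, the 5' end was in a site in 70.2% (69.3 to 71.1). The gapped arrangement was found there in 16.0% (15.3 to 16.7), downstream sites alone in 10.3% and upstream sites alone in 3.47%. The gap had a median of 221 bp at the 41 genes and 169 bp at the others. The plot of cover around the 5' end counts all sites, so that 613 of the 961 genes, Sparc and Col6a3 among them, had a site over the 5' end. Other coding genes had a dip to 53.8% of genes at 50 bp upstream between an upstream shoulder and a peak of 95.8% at 200 bp downstream. CpG-poor genes had no such dip. Cover rose from 40.2% at 450 bp upstream through 63.8% at the 5' end to a peak of 71.7% at 150 bp downstream. A RefSeq start lay within 100 bp of the 5' end at 49.7% of these CpG-poor genes and at 65.4% of the other coding genes with a site. The part of less exact 5' ends in the missing dip was not tested. Of the 961 CpG-poor genes, 713 (74.2%) had 1 site, 226 (23.5%) had 2 and 22 (2.29%) had 3, and no gene had more. At other coding genes with a site, 61.5% had 1 site, 35.9% had 2 and 2.58% had 3 or more. CpG-poor genes with 3 sites included Il6, Thbs2, Acss3, Med15, Ifrd1 and Hsp90aa1. Of these, Med15, Ifrd1 and Hsp90aa1 had another coding start in CpG-richer DNA, with ratios of up to 0.680, 0.918 and 1.07. At Thbs2, which encodes a matrix glycoprotein that limits blood vessel growth, a site of 746 bp over the 5' end was flanked by 503 bp upstream and 249 bp downstream.

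**Figure D4:**
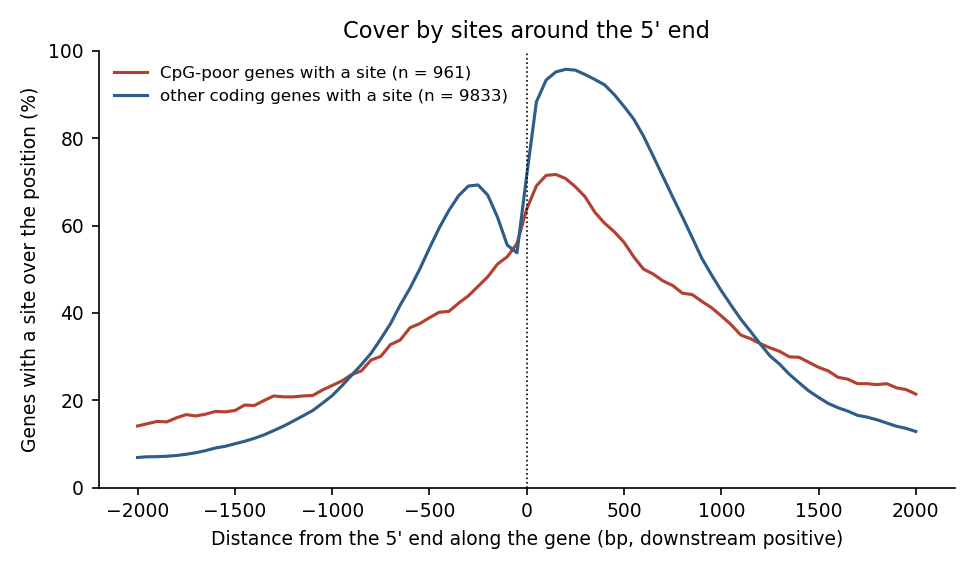
Share of genes, in percent, that have a site over each position from 2000 bp upstream to 2000 bp downstream of the 5' end, in steps of 50 bp, for 961 CpG-poor genes and 9833 other coding genes with a site. The curve of CpG-poor genes has a single peak of 71.7% at 150 bp, and that of the others an upstream shoulder, a dip of 53.8% at -50 bp and a peak of 95.8% at 200 bp.

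Most members had a close neighbour. A further site lay less than 1 kb away in 66.2% (63.5 to 68.8) of members and in 69.3% of sites at other coding promoters, a difference of -3.32 ± 9.31 percentage points over chromosomes that missed the threshold (exact sign-flip permutation p = 0.127, adjusted p = 0.127, below 0 on 13 of 20 chromosomes). This result turned with the settings. The difference was 6.05 points with sites merged across gaps under 200 bp (adjusted p = 0.0145 in the exact permutation test) and -8.10 points with genes supported by RefSeq only (adjusted p = 0.0147). The median gap to the nearest site was 289 bp, compared to 214 bp at other coding promoters and 334 bp away from them. Neighbours on both sides within 1 kb were found for 18.1% (16.0 to 20.4) of members, 13.4% of other coding promoter sites and 28.2% of sites away from promoters. When sites less than 1 kb apart were joined into regions, 33.8% of members stood alone, compared to 30.7% at other coding promoters and 27.4% away from them. A region of 5 or more sites held 12.8% of members, 6.76% of sites at other coding promoters and 25.4% of those away from them. The largest region with a member had 22 sites and included the member at Iqgap1. Regions of 16 sites held those at Acta2, Cald1 and G430095P16Rik, and a region of 18 sites that at Ccn5. At the other extreme, 16.7% (14.7 to 18.9) of members had no other site within 10 kb. This share was similar at other coding promoters (17.3%) and was 8.72% away from them. The member at Hgf stood 43679 bp from the next site, that at Mmp1b 56968 bp, that at Serpinb8 83231 bp and that at the olfactory receptor gene Olfr1494 389168 bp, though other members stood farther away still. CpG-poor genes without a site were mostly far from any, at a median of 38930.5 bp, and 24.1% of them had a site within 10 kb. For other coding genes without a site these values were 25506 bp and 29.9%.

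Some member genes lay near each other in the genome. When neighbouring 5' ends of member genes within 100 kb were joined, 282 of the 961 genes fell into 111 runs of 2 or more. Genes without a site could lie between those of a run. The same count is not given for all CpG-poor genes, so whether member genes lie closer together than those is not known. A run of 7 on chromosome 11, from 99559466 to 99658960, was made of genes of keratin-associated proteins, which are made in hair. It comprised Gm11939, Krtap3-1, Krtap1-5, Krtap1-4, Gm11562, Krtap4-2 and Gm11563. All 15 coding genes in the span were CpG-poor, and only these 7 had a site. Between Krtap1-4 and Gm11562, the genes Krtap1-3, Krtap9-3, Gm11938, Gm11937 and Krtap2-4 had none. The widest sites of the 7 genes measured between 279 and 787 bp, the latter at Krtap1-5, whose 5' end lay in the site. A second run of 7 on chromosome 13, from 67306485 to 67451624, held the zinc finger genes Zfp457, Zfp953, Zfp456, Zfp429 and Zfp874a with Gm28044 and Gm28041. Each of these 5' ends lay in a site, and the sites measured 487 to 904 bp and stood alone. Ratios were 0.335 to 0.392, just under the bound, and neighbours of the 5' end, such as Zfp953 and Gm28044, shared a site. Close copies exist in both families, so that these sites are uncertain as well.

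Of 3 runs of 6 genes, the one with the shortest span lay on chromosome 3, from 90514392 to 90654017, and was made of S100 genes, which encode small calcium-binding proteins. S100 genes had a site at 6 of 12 CpG-poor genes (50.0%, 25.4 to 74.6), and all 6 were in this run. S100a4, a marker of fibroblasts and metastatic cells, had a site of 7557 bp from 90599267 to 90606823 in a region of 9 sites that also contained the 1132 bp site of S100a5. S100a1 had a site of 1879 bp, while S100a16 had 1 of 423 bp downstream and S100a14 1 of 337 bp upstream of the 5' end. S100a7a, with a ratio of 0.068, had sites of 206 and 272 bp with a gap of 51 bp. S100a3 lay in the same span without a member site, and S100a2 had its 5' end in a site of 4809 bp with its middle more than 1 kb away.

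**Figure D5:**
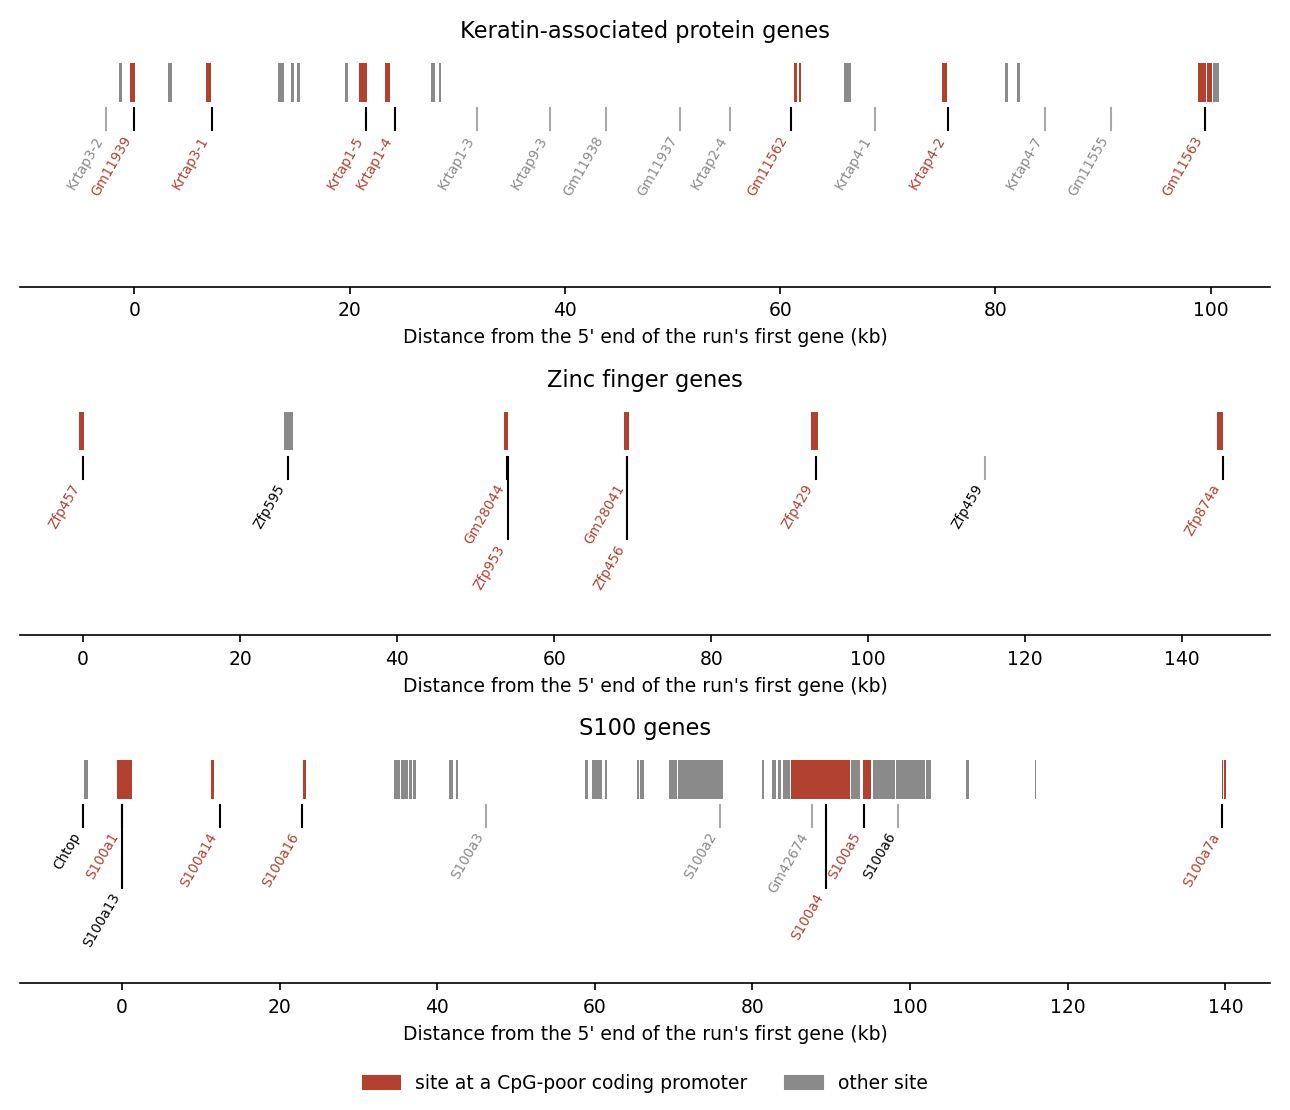
Sites (bars, widths to scale) and 5' ends of coding genes (ticks with names) in 3 runs of CpG-poor genes with a site, namely both runs of 7 genes and the shortest of the 3 runs of 6, by distance in kb from the 5' end of the first gene. Red bars are sites at CpG-poor coding promoters and grey bars other sites, red names are CpG-poor genes with a site, grey names CpG-poor genes without one and black names other coding genes. Zinc finger sites stand alone at the 5' ends, whereas the S100 run has the 7557 bp site of S100a4 in a dense region.

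Mean GC content was 51.7% in members, 57.2% in sites at other coding promoters and 48.7% in sites away from promoters. Annotated repeats made up 13.1% of a member on average, compared to 10.4% and 19.5% in these classes. The CpG ratio of the site itself had a median of 0.264 and was under 0.4 in 80.1% of members and at least 0.6 in 5.29%. These values follow in part from the rule, which chose members by a low ratio around the 5' end. Sites at other coding promoters had a median of 0.665, with 11.5% under 0.4. Sites away from promoters had a median of 0.188, with 91.2% under 0.4. The word TGANTCA, which reads the same on both strands apart from its middle base, was present in the 300 bp at the middle in 10.7% (9.05 to 12.5) of members, 4.43% (4.08 to 4.81) of other coding promoter sites and 13.3% of sites away from promoters. In the whole site it was present in 24.9%, 14.9% and 21.8%, so that members then had the highest share. Per kb of site it was found 0.383, 0.176 and 0.479 times on average. The classes differ in GC content as given above, and the part of base composition in these shares was not tested. TATAAA, searched on the strand of the gene in the 50 bases before the 5' end, was found at 4.99% (3.79 to 6.56) of CpG-poor genes with a site and at 6.40% (5.87 to 6.97) of those without one. At other coding genes with a site it was found at 0.834%, and at all coding genes at 3.27%. The 62 members at TATAAA genes had a median width of 362.5 bp and the other 1148 members 539.5 bp. They included the sites of S100a4, Mgp, Ecm1, Postn and Mmp3. A match is a description of these letters and not a functional site.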

How the data were processed

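Sites were taken from the list that the authors deposited, which holds the chromosome and both ends of every H3K27ac site and no other measurement. Per the methods of the study, the authors used Trim Galore for trimming, BWA for alignment to mm10 (GRCm38.p6), SAMtools for filtering and Picard for merging replicates. Narrow peaks were called in MACS, for which version and threshold are not given in the sources used here. Peaks of all samples were joined, and how is likewise not given. Joined peaks can be wider than those of a single sample, and the list holds no replicate, count or depth.

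Starts were read as counted from 0 and are printed counted from 1. Genes were those of GENCODE release M21 for GRCm38.p6, an earlier release than the authors used. CpG ratios, GC content and motif words were computed over 1001 bp windows, sites or stretches of the same sequence. RefSeq starts came from the RefSeq gene table. Classes were compared by the difference on each chromosome, using an exact permutation test, two-sided, that flips the sign of the differences of 20 chromosomes, and Benjamini-Hochberg adjustment over 5 tests. Chromosomes, not samples, are the units, so that p-values measure the spread between chromosomes of a single list. Genes and sites near each other are not independent, and Wilson intervals cover counting error only. Where a count was 0, the limit given is that of 3 counts. The width comparison was checked on widths shuffled over the sites, and the share of genes with a site on ratios shuffled over the genes. The permutation test itself was checked on a small case with a known answer. The other comparisons were not checked in this way. Computation was done in Python 3.11.15 (numpy 2.4.6, pandas 2.3.3, scipy 1.17.1) and plotting in matplotlib 3.10.9.

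The class and the gene lists were chosen with earlier results of these data known. Genes were named by rule, namely up to 6 genes per list by widest site, the 10 widest members, 5 of the 22 genes with 3 sites (those with the widest), those nearest to the bounds and those of the 3 runs with the most genes (ties going to the shorter span). Genes without a member site, genes whose 5' end lay in a wider site and further genes of the lists were named after their values were seen. Sequences were printed for the gene with the widest member per list, for 8 lists, and not from chromosome 18.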

Additional observations from a re-analysis of the deposited data

Results flagged for a closer look

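The list held 57 sites on sequences outside the assembled chromosomes, which entered no comparison. Of these, 6 had the middle within 1 kb of an annotated coding 5' end. They were flagged because they lie outside the chromosomes used for all other values, and there was no control list to set them against.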

How the results depend on the processing

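The 5 comparisons were repeated under 12 alternatives and under 3 more that were chosen after seeing the data. The lower share of CpG-poor genes with a site held in all 15 (-70.1 to -52.9 percentage points, adjusted p at most 1.91e-05 in the exact sign-flip permutation test), as did the lower width (-0.71 to -0.39 on the log2 scale, adjusted p at most 5.72e-05). The 3 other comparisons depended on the settings, and the cause was not tested. Differences are in percentage points. For the share that holds the 5' end, the difference reversed with a distance of 500 bp (8.63), without the narrowest 25% of sites (2.03) and with genes supported by RefSeq only (0.64). It passed the threshold with a ratio under 0.3 (-3.66), a distance of 2 kb (-13.0), without the X chromosome (-2.54), with sites merged across gaps under 200 bp (-13.0) and with any overlap (-7.87). For the middle downstream it passed with a ratio under 0.3 (-9.19), 2 kb (-6.41), without the X chromosome (-4.29), merged sites (-11.1), any overlap (-3.21) and without genes that have another coding start of ratio of at least 0.4 (-6.66). For a neighbour under 1 kb it reversed with a ratio under 0.3 (0.46) and with merged sites (6.05, adjusted p = 0.0145 in the exact test), where it passed the threshold in the other direction, and it passed with a window of 1000 bp either side (-6.42), 2 kb (-5.25), any overlap (-3.43), RefSeq support (-8.10) and without genes that have another such start (-6.90). The number of members was 747 and 1875 with ratios under 0.3 and under 0.5, and 748 and 2044 with distances of 500 bp and 2 kb, compared to 1210. When the whole site was searched, TGANTCA was present in 24.9% of members, 14.9% of sites at other coding promoters and 21.8% of those away from promoters.

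No paired analysis was possible because libraries have no values of their own in the joined list, and for the same reason no replicate was left out. Read depth is unknown.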
